A study of Mus musculus with 12 samples.

Results

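The comparison described here set 3 pancreata of Mist1KO mice against 3 pancreata of wild type mice, all injected with caerulein, on 6 of the series' 12 arrays. Array titles name the genotype and the injection, these chose the 6 arrays, and none was left out. Per the labels the mice were males aged 2 to 4 months, injected each hour for 4 hours and killed at the end of that period. The wild type mice were C57BL6. The labels give no strain background and no description of the deleted allele for the Mist1KO mice, and no caerulein dose. The other 6 arrays, of 3 Mist1KO and 3 wild type pancreata after saline, entered as the saline comparison. The design text calls the pancreata biological replicates, and n = 3 in every group below. Total RNA of the whole organ was measured on Affymetrix arrays, so each value is a signal for a probe set in a mixture of cell types.

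Mist1, encoded by Bhlha15, belongs to the basic helix-loop-helix family of transcription factors and is made by cells that secrete large amounts of protein. In the pancreas it is made by the acinar cells, where it is known for its part in granule storage, apical polarity and gap junctions. Caerulein is an analogue of cholecystokinin: it releases calcium in acinar cells and drives zymogen secretion, and repeated injections cause an acute pancreatitis. Acinar cells answer such a load with the unfolded protein response and with the integrated stress response, in which phosphorylation of eIF2alpha slows translation and favours the transcription factor ATF4.

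Bhlha15 itself read 776.8, 729.5 and 838.5 on the wild type caerulein arrays and 42.6, 38.3 and 79.4 on the Mist1KO caerulein arrays. The groups lay far apart, with a log2 difference of -3.51 ± 0.17 (SE; limma, adjusted p = 7.22e-08). A second probe set was also lower (-1.38 ± 0.17, adjusted p = 8.31e-05). The sources used here do not say whether either probe set lies in the deleted part. Differences here and below are Mist1KO minus wild type on the scale of log2(value + 18.7), which understates the change of dim genes, and a gene "rose" or "fell" where its adjusted p was under 0.05 over all probe sets tested. Bhlha15 lies on chromosome 5, and its neighbourhood did not hold more calls than the rest of the genome. Within 10 Mb of it, 27 of 132 genes passed (20.5%), against 121 of 586 on chromosome 5 (20.6%) and 1838 of 8894 on other chromosomes (20.7%).

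The arrays differed in more than the genes described. On the Mist1KO caerulein arrays the hybridisation spikes had geometric means of 408 to 513 and on the wild type caerulein arrays of 831 to 1443. The 50 brightest probe sets took 8.47% to 11.53% of all signal in Mist1KO and 14.31% to 17.51% in wild type. For Actb, 3′ over 5′ signal came to 1.08 to 1.2 in Mist1KO and 1.28 to 1.4 in wild type. These measures did not overlap between the groups, while the same ratio did for Gapdh (0.92 to 1.02 and 0.93 to 1.22) and Pc (2.69 to 3.71 and 2.17 to 3.75). The part of the spikes, the brightest probe sets and Actb in the results was not tested. Mist1KO caerulein replicate 3 stood apart from its group on the first principal component of the 12 arrays (28.87, against 47.43 and 52.12). For several genes and lists that it moved, the result without it is given too.

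After caerulein the genotypes differed in many genes of different roles. Of 15716 probe sets tested, 3177 passed (20.2%), 1579 higher and 1598 lower in Mist1KO. With 1 probe set per gene, 1960 of 9481 genes passed (20.7%). Of these, 856 were higher (9.03%) and 1104 lower (11.6%), and the median difference of all genes was -0.09. Counts of list members below are to be read against these shares of all genes. Centring each array on its median turned an even split (49.7% of called probe sets higher) into one of 61.7% higher, so the balance of rises and falls depends on the scaling. Without Mist1KO caerulein replicate 3, 2791 probe sets passed. In a principal component analysis of the 6 arrays alone, component 1 (53% of variance) set the genotypes apart and Mist1KO caerulein replicate 3 lay with its group (35.43, against 36.09 and 37.71). On component 2 (15.2%) wild type caerulein replicate 1 stood apart (39.71, against -20.35 and -16.66), and 2776 probe sets passed without it.

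The 12 largest falls were those of Fgf21, Bhlha15, Chac1, Egf, Nfil3, Cebpb, Atp2c2, Sesn2, Dusp1, Herpud1, Trib3 and Spdef, between -5.28 and -2.63. The 12 largest rises were those of Cblif, Smarca1, Tm4sf4, Bex3, Rasl10a, Krt20, Fads3, Jchain, Apcs, Moxd1, Iglv1 and Ighm, between 4.31 and 2.59. Some of these genes differed by genotype in the same direction after saline, such as Egf and Cblif, and some were close to 0 there, such as Fgf21 and Herpud1. Iglv1 (-2.41) was lower in Mist1KO after saline, and Jchain (-1.14) and Ighm (-0.94) lay below 0 there without passing.

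**Figure D1:**
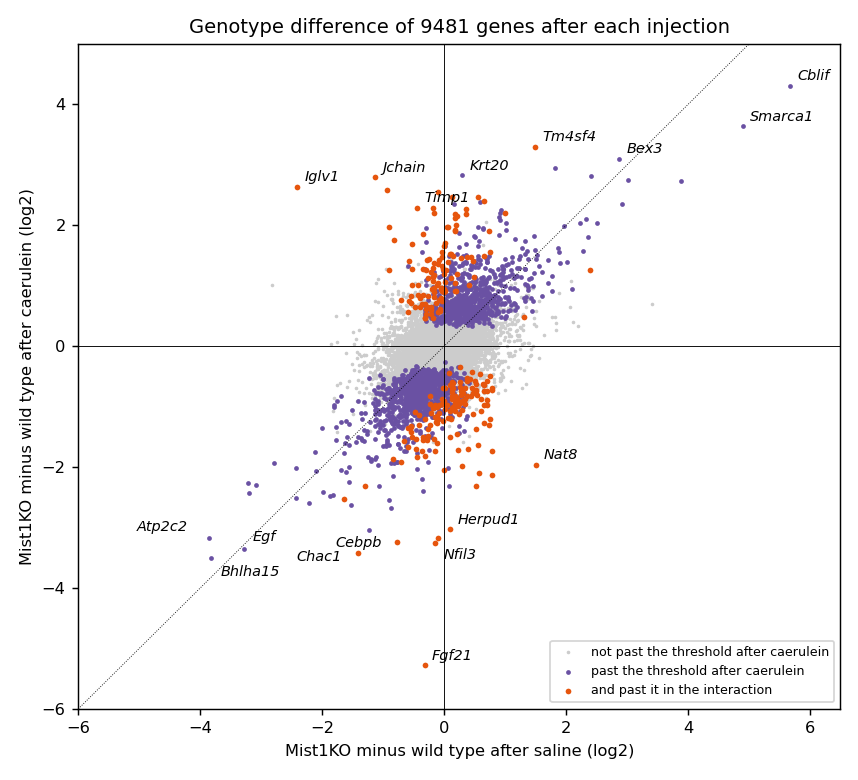
Each point is 1 of 9481 genes, placed by its Mist1KO minus wild type difference (log2) after saline (x axis) and after caerulein (y axis), with 3 arrays per group. Purple and orange points passed the threshold after caerulein, orange ones also in the interaction, and the dotted line marks equal differences. Cblif and Smarca1 are high and Egf and Atp2c2 low on both axes, while Fgf21 (-5.28), Herpud1 and Nfil3 lie low at an x value near 0.

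Genes of the secretory acinar cell were lower. Of 20 measured genes that earlier work tied to Mist1 in acinar cells, 14 fell, none rose and 6 did not pass (median -1.06, against -0.09 for all genes, of which 11.6% fell). Leaving out single arrays gave 13 to 15 falls. After saline, 13 of the 20 were lower and 1 higher (median -1.02). The test of the difference between the injections passed for 1 of the 20, against 3.34% of all genes. The 20 and the 14 include Bhlha15, the knocked-out gene itself, whose fall is no evidence about the other members. Atp2c2, which pumps calcium into the Golgi and secretory vesicles, read 240.5, 168.5 and 225 in wild type and 5.1, 5.3 and 9 in Mist1KO. Every Mist1KO array was thus near the bottom of the signal range (-3.18 ± 0.25, adjusted p = 1.75e-06). Rab3d, a small GTPase of zymogen granules, read 1265.8, 1515.1 and 1302.4 against 217.5, 245.7 and 219.8. Its fall was 5.59-fold (-2.48 ± 0.12, adjusted p = 5.35e-08), and its 3 other probe sets lay between -2.38 and -0.82. The gap junction genes Gjb1 (-2.27 ± 0.33, adjusted p = 0.000317) and Gjb2 (-1.50 ± 0.16, adjusted p = 3.21e-05) both fell. Gjb2 read 2821.7, 4621.2 and 4381 in wild type caerulein and 1384, 1386.1 and 1293.4 in Mist1KO caerulein, against 489.8 to 576.6 in wild type saline and 142.7 to 176.5 in Mist1KO saline. The caerulein groups thus stood above the saline group of the same genotype, and Mist1KO stood below wild type after both injections. The list's other falls were those of Serpini1 (-2.24), the coat subunit Copz2 (-1.64), Tmed6, Arfgap3, Camk2b, Ccpg1, Mlec, Creld2 and Edem3 (-0.58).

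The digestive enzymes followed with smaller folds. Of 23 measured enzymes and secreted acinar proteins, 22 fell, with a median of -0.89, and only Pm20d1 (0.78 ± 0.40) did not pass. The chymotrypsin gene Ctrc read 3215, 4123.4 and 4275.9 in wild type and 802.1, 926.1 and 1013 in Mist1KO (-2.06 ± 0.15, adjusted p = 1.16e-06). The amylase gene Amy1 read 701.4, 921.3 and 1156.7 against 263.8, 293.4 and 350 (-1.54 ± 0.22, adjusted p = 0.000337). The groups were well separated for both. Most other members, among them the carboxypeptidase Cpa1 (-0.99) and Zg16 (-1.01), lay between -1.20 and -0.71. These are among the brightest probe sets of the array, and most of their calls depended on which scaling was used. With each array centred on its median, 22 of the 23 fell (median -0.81). After quantile normalization, 5 of the 23 fell and the median was -0.08. Ctrc and Amy1 kept their calls there, and Cpa1 did not. After saline, 5 of the same 23 fell (median -0.52). Among the Reg family of secreted lectins, Reg1 (-0.87) and Reg2 (-0.71) of 7 measured members fell. Neither passed after quantile normalization, and Reg2 was then at 0.15. In whole-organ RNA, fewer acinar cells and less of a transcript per cell cannot be told apart. The summed signal of 10 acinar markers, Bhlha15 among them, was 62414 to 95634 in Mist1KO and 123366 to 169808 in wild type. With the deposited scaling 8 of the 10 fell, as did 8 with each array centred on its median. After quantile normalization 1 fell, and that was Bhlha15, the knocked-out gene itself.

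The list of acinar transcription factors did not fall with the enzymes, most of whose calls were lost after quantile normalization. It is a broad list that also holds Id and Tcf genes, Hes1, Onecut1, Pdx1 and Sox9. Of 19 measured, 4 rose and 1 fell, against 9.03% and 11.6% of all genes. The median was 0.11, and 0.16 after quantile normalization. Nr5a2, a nuclear receptor that acts with Ptf1a on acinar genes, read 294.6, 264.9 and 225.4 in wild type and 777.4, 591.2 and 1042.6 in Mist1KO. It rose 2.87-fold (1.52 ± 0.18, adjusted p = 5.41e-05), and its other probe sets were at 1.64 and 0.86. After saline it was at 0.10 ± 0.18, and the difference between the injections passed (interaction 1.42 ± 0.25, adjusted p = 0.00749). Foxa2 (0.98), Id2 (0.83) and Tcf12 (0.76) rose and Foxa3 fell (-0.47), the calls of Id2 and Foxa3 being lost without any of several single arrays, among them Mist1KO caerulein replicate 3. Ptf1a, which defines acinar cells, was at -0.26 ± 0.16 (adjusted p = 0.292) and Xbp1, the transcription factor of the unfolded protein response, at -0.13 ± 0.12 (adjusted p = 0.518). Of 28 genes of granule exocytosis and its Rab machinery, 4 rose and 4 fell, not far from the shares of all genes. The falls were Rab3d, Unc13b (-0.65), Cuzd1 (-0.60, not after quantile normalization) and Vamp8 (-0.48). Rab27b (0.94), Rab11a (0.66), Vamp2 (0.53) and Tpd52 (0.43) were the rises, of which 2 were left without any of 3 single arrays (wild type caerulein replicate 2, Mist1KO caerulein replicates 1 and 3).

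Egf, a growth factor that acinar cells secrete, was lost almost as fully as Bhlha15. It read 1013.5, 968.2 and 931.7 in wild type and 53.7, 97.1 and 89.2 in Mist1KO (-3.35 ± 0.18, adjusted p = 1.2e-07), and it was at -3.29 ± 0.18 after saline. Of 11 EGF ligands and ErbB receptors, 3 fell (median -0.57), the others being Egfr (-0.69) and Hbegf. Hbegf, a ligand induced early in injury, read 1405.3, 3673.6 and 3022.1 against 661.2, 855.9 and 114. Its difference was -2.55 ± 0.53 (adjusted p = 0.00413) and -1.71 without Mist1KO caerulein replicate 3, the lowest array. Spdef, an ETS factor of secretory epithelia, read 218.6, 197.3 and 158.8 against 18.8, 13.2 and 13.4 (-2.63 ± 0.24, adjusted p = 7.57e-06).

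**Figure D2:**
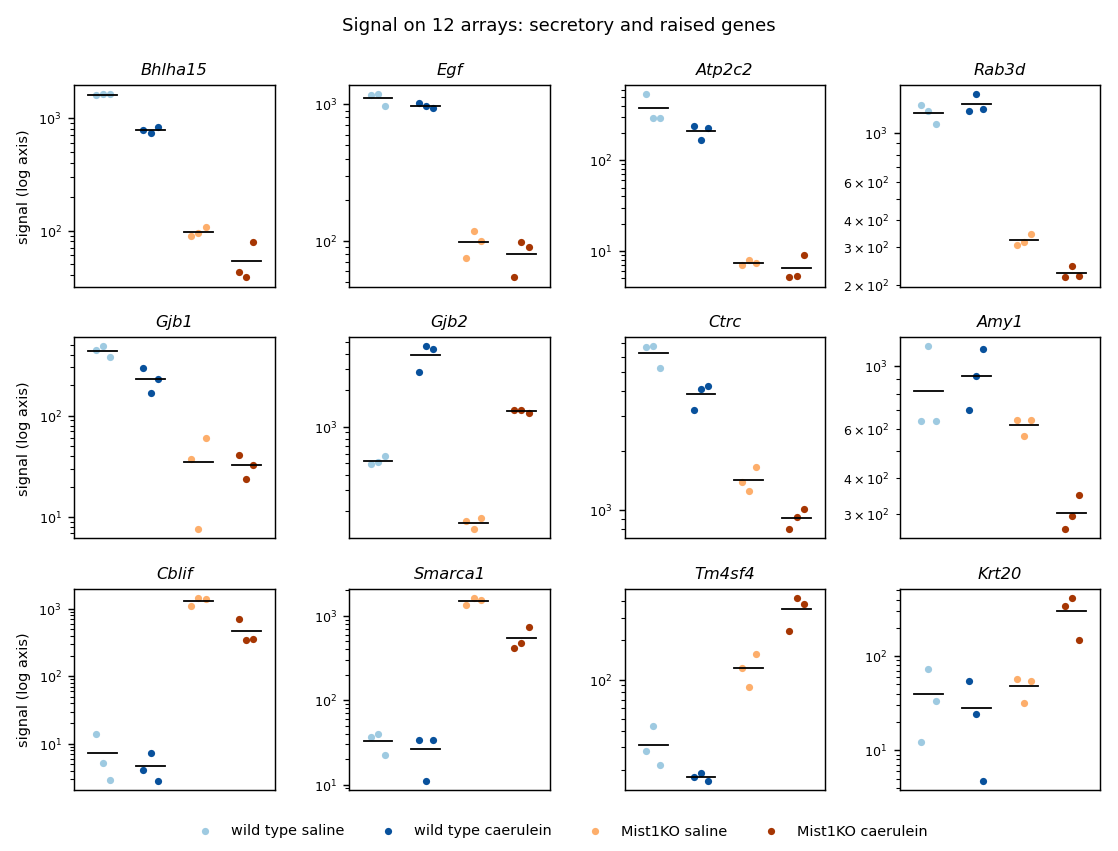
Signal of 12 genes (log axis) on the 12 arrays, with 1 point per pancreas and a bar at the mean of the 3 arrays of a group, from left to right wild type saline, wild type caerulein, Mist1KO saline and Mist1KO caerulein. Bhlha15, Egf, Atp2c2, Rab3d and Gjb1 are low on all 6 Mist1KO arrays, Cblif and Smarca1 are high on them, and Krt20 is high on the 3 Mist1KO caerulein arrays (150 to 414.6).

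Several of the largest rises were of genes that the wild type pancreas hardly showed. Cblif, the intrinsic factor of the stomach that carries vitamin B12, read 4.1, 7.4 and 2.8 in wild type and 713.4, 341.6 and 360.9 in Mist1KO (4.31 ± 0.26, adjusted p = 2.51e-07). Smarca1, a chromatin remodelling ATPase, read 33.9, 11 and 34.1 against 414.6, 476.7 and 731.7 (3.64 ± 0.25, adjusted p = 6.26e-07). Both were higher still in Mist1KO after saline, at 1082.3 to 1438.2 for Cblif and 1352.4 to 1627.5 for Smarca1. The size of such differences depends on the offset: that of Cblif was 2.90 with an offset of 64 and 6.35 with an offset of 1. Bex3 (3.10 ± 0.22), Fads3, a fatty acid desaturase homologue (2.81 ± 0.26), Apcs, serum amyloid P (2.75 ± 0.28), and Moxd1, a monooxygenase (2.73 ± 0.23), also rose. Of 7 genes listed because earlier results on these arrays showed them raised after saline, 6 rose after caerulein (median 2.75), and Hpgd, which inactivates prostaglandins, was at 0.70. That list was chosen on the saline arrays and is no independent evidence of its direction there. Tm4sf4, a 4-span membrane protein of the gut, read 17.6, 18.9 and 16.5 in wild type and 238, 424.4 and 381.7 in Mist1KO (3.30 ± 0.26, adjusted p = 1.98e-06). Its difference was larger than after saline (1.49 ± 0.26; interaction 1.81 ± 0.36, adjusted p = 0.0168), a call lost without Mist1KO caerulein replicate 2.

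The integrated stress and amino acid response was lower almost throughout. Of 32 measured members, 31 fell, none rose, and the arginine transporter Slc7a1 (-0.61 ± 0.32, adjusted p = 0.208) did not pass. The median was -1.17. Leaving out single arrays gave 27 to 31 falls (28 without Mist1KO caerulein replicate 3), and quantile normalization 30. Fgf21, a stress hormone of liver and pancreas that ATF4 induces, read 485.6, 1935.2 and 1317.9 in wild type and 7.8, 8.5 and 12.6 in Mist1KO. The Mist1KO caerulein arrays were no brighter than the Mist1KO saline arrays (7.9, 8.9 and 14.7). The difference was -5.28 ± 0.38 (adjusted p = 8.55e-07), and between -6.69 and -3.96 with offsets of 1 and 64. Chac1, which degrades glutathione, read 6534.9, 9731.2 and 11550.7 against 935.4, 1380.8 and 423.3 (-3.43 ± 0.33, adjusted p = 1.16e-05). Cebpb, a bZIP transcription factor, read 1755.7, 1843.4 and 2059.9 against 185.8, 231.2 and 140.4 (-3.24 ± 0.23, adjusted p = 7.98e-07). In both genes the Mist1KO arrays stood below all wild type caerulein arrays and overlapped the range of wild type after saline.

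Promoter sequences of members that fell are shown because they hold the letters TGATGNAA, the core at which ATF4 is known to bind together with C/EBP factors. The 250 bases upstream of each gene's start were read from RefSeq's promoter table (GRCm38.p6) on both strands, and 28 of the 31 genes that fell had an entry. Of these, 7 held the letters (25%), against 2.7% of 7642 tested genes with an entry and 3.9% of 27025 genes in the whole table. The same 7 were 24.1% of all 29 measured members with an entry, so the share describes the list and not its falls. The list was drawn up around the response in which ATF4 acts, and a high share can follow from that choice. Herpud1, of the degradation list below, held the letters too. Capitals mark the match, which on the opposite strand reads TTGCATCA, and each stretch runs 5′ to 3′ on the gene's strand. A match is a description of letters and not a binding site.
Fgf21, chr7:45615598-45615653, minus strand: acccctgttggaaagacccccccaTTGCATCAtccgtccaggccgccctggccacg
Chac1, chr2:119351025-119351080, plus strand: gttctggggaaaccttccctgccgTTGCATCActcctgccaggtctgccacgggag
Atf3, chr1:191183412-191183467, minus strand: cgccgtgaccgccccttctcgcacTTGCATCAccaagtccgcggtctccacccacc
Asns, chr6:7693210-7693256, minus strand: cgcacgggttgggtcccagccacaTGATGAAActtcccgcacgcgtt
Slc7a11, chr3:50443629-50443703, minus strand: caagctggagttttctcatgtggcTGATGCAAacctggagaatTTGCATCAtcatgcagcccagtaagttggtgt
Vldlr, chr19:27216796-27216851, plus strand: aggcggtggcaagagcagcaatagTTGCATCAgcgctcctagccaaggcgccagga
Nupr1, chr7:126625549-126625604, minus strand: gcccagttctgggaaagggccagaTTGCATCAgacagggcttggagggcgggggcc
Herpud1, chr8:94386293-94386348, plus strand: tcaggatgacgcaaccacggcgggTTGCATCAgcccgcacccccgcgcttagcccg
Among the 13 genes of the Mist1-dependent list that fell and had an entry, none held the E-box CAGCTG (14.4% of tested genes) and 1, Gjb1, held CATATG (2.1%). Both are E-box letters that basic helix-loop-helix factors can bind, and their absence says only that they are not in these windows. Gjb1 is shown with its CATATG in capitals.
Gjb1, chrX:101383689-101383731, plus strand: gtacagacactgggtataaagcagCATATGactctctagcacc

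The genes of these promoters differed in how far they fell. Fgf21 and Chac1 were the most reduced of the list, Atf3 was at -2.40 ± 0.46, Vldlr at -1.74 ± 0.35, Slc7a11 at -1.36 ± 0.30, Asns at -1.04 ± 0.12 and Nupr1 at -0.72 ± 0.18. Atf3, a stress-induced transcription factor, read 2324.6, 3618.3 and 2747.8 in wild type and 877.7, 871 and 183.8 in Mist1KO. Its adjusted p was 0.00235, and its difference was -1.68 without Mist1KO caerulein replicate 3, the lowest array. Atf4 itself fell less than most of its targets, from 3270.8, 4122.6 and 3479.4 to 2451.6, 2263.8 and 1726.4 (-0.76 ± 0.15, adjusted p = 0.00235). Ddit3, a pro-apoptotic factor downstream of it, read 182.1, 293.7 and 156.5 against 65.7, 106.6 and 85.1 (-1.11 ± 0.28, adjusted p = 0.0136). Its call was lost without wild type caerulein replicate 2 or Mist1KO caerulein replicate 1, with adjusted p-values up to 0.067. Sesn2, a sestrin that restrains mTORC1, read 462.1, 512.3 and 528 against 70.5, 56 and 10.1 (-3.17 ± 0.37, adjusted p = 5.56e-05). Trib3, a pseudokinase induced by ATF4 and Ddit3, read 1194.1, 1092.2 and 1123.5 against 197.4, 233.1 and 90.3 (-2.67 ± 0.34, adjusted p = 0.000111).

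The enzymes and transporters that the response controls fell by smaller amounts. Cth (-1.74) and Cbs (-0.90) make cysteine, Psph (-1.65), Psat1 (-0.82) and Phgdh (-0.68) make serine, and Slc6a9 (-1.50), Slc3a2 (-1.22), Slc7a3 (-1.17), Slc38a2 (-1.02) and Slc7a5 (-0.98) carry amino acids. Of 18 aminoacyl-tRNA synthetases, 11 fell and none rose (median -0.48), led by those for threonine (Tars, -0.93 ± 0.17) and leucine (Lars, -0.93 ± 0.12). That count was 7 with each array centred on its median, and 7 without wild type caerulein replicate 2 or Mist1KO caerulein replicate 1 or 2. After saline, 10 of the 32 response genes fell and none rose (median -0.36). The test of the difference between the injections passed for 13 of the 32, all lower, against 3.34% of all genes (10 to 14 on leaving out single arrays). Fgf21 (-4.96 ± 0.53, adjusted p = 0.000466), Sesn2 (-3.07 ± 0.52, adjusted p = 0.00622) and Cebpb (-2.47 ± 0.32, adjusted p = 0.00168) had the largest interactions of the list. Set beside each other, the caerulein responses of the list had medians of 1.55 in wild type (28 rose, 0 fell) and 0.58 in Mist1KO (18 rose, 3 fell). These responses share arrays with the comparison of genotypes.

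**Figure D3:**
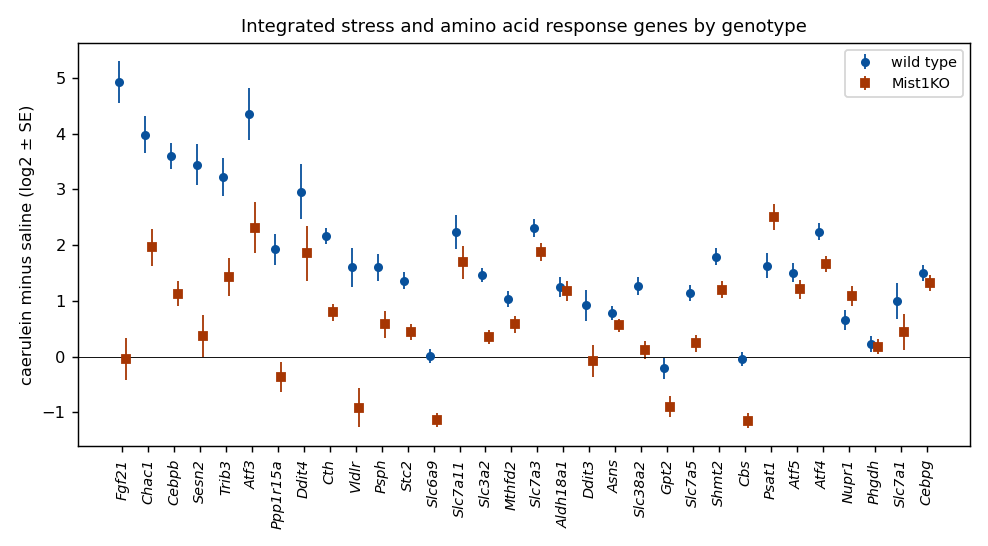
Caerulein minus saline difference (log2, ± SE, 3 arrays per group) of the 32 measured integrated stress and amino acid response genes in wild type (blue circles) and Mist1KO (brown squares), ordered by the genotype difference after caerulein. In Fgf21, Cebpb, Sesn2 and Vldlr the Mist1KO value is at most 1.13 and the wild type value at least 1.6, while for Phgdh and Cebpg the symbols lie close together.

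ER quality control genes held falls and, less stably, rises. Of 27 chaperones and disulfide isomerases, 6 rose and 9 fell (median -0.19), against 9.03% and 11.6% of all genes. The disulfide isomerase Pdia3 rose most (216.4, 120.1 and 162.8 against 383.5, 333.4 and 400.6, a difference of 1.11 ± 0.17, adjusted p = 0.000534). The lectin chaperone Canx (0.53), Dnajc10 (0.51), Hsp90b1 (0.47), Calr (0.44) and Manf (0.39) rose by less than 1.5-fold. Only 1 to 3 of the 6 rises were left without wild type caerulein replicate 1 or 3, Mist1KO saline replicate 1 or any Mist1KO caerulein array. There were 2 rises in a fit to the 6 caerulein arrays alone, and 2 without a trend in eBayes. The oxidases Ero1b (-1.54 ± 0.17, adjusted p = 3.93e-05) and Ero1a (-1.02), Dnajc3 (-0.96), Sdf2l1 (-0.84), Hspa5 (-0.77), P4hb (-0.75), Creld2 (-0.70), Txndc11 and Fkbp11 fell. The call of Sdf2l1 was lost without wild type caerulein replicate 2 or 3 or Mist1KO caerulein replicate 1 or 2. Hspa5, the chief ER chaperone BiP, read 7622, 9618.7 and 8419 in wild type and 5250, 4774.4 and 4982.7 in Mist1KO. It was lower after caerulein (-0.77 ± 0.11, adjusted p = 0.000347) and higher after saline (0.47 ± 0.11, adjusted p = 0.0155). A second probe set of Hspa5 was at 0.01 ± 0.15 after caerulein (adjusted p = 0.982), so the fall depends on the probe set, while the interaction passed with both (-1.24 and -1.08). The other probe sets of Dnajc3 lay between -0.11 and 0.72 and did not share its fall either. 

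Promoters of this list are shown because several members hold the same ER stress element, whichever way their signal lay. The element, CCAAT and CCACG separated by 9 bases on either strand, stood in 8 of 23 list members with an entry (34.8%) and in 0.2% of tested genes. Of the 8, Calr, Canx and Hsp90b1 rose, Creld2, Dnajc3, Ero1b and Hspa5 fell, and Pdia6 (-0.36) did not pass. The limits given above for the rises of this list and for the probe sets of Hspa5 and Dnajc3 hold for this split too. Capitals mark the element.
Hspa5, chr2:34772009-34772059, plus strand: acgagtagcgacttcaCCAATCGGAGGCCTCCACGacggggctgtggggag
Creld2, chr15:88819504-88819554, plus strand: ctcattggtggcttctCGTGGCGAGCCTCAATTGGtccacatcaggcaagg
Canx, chr11:50325784-50325834, minus strand: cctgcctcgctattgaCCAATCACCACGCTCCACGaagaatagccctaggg

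Herpud1 was the outstanding fall of the ER group. It links the ubiquitin ligase of ER-associated degradation to its substrates and read 7342.2, 8000.1 and 7074 in wild type caerulein and 814.5, 791.2 and 1117.8 in Mist1KO caerulein. After saline the genotypes overlapped (1926.6 to 3771.4 and 2592.7 to 3630.2), so that the Mist1KO caerulein arrays lay below all others. The difference was -3.03 ± 0.21 after caerulein (adjusted p = 7.56e-07) and 0.10 ± 0.21 after saline, with an interaction of -3.13 ± 0.30 (adjusted p = 0.000243). A second probe set was at -3.21. Of 29 ER stress sensors and degradation genes, 10 fell and 1 rose (median -0.16). The lectin Os9 (-1.23 ± 0.13, adjusted p = 2.69e-05), Selenos (-1.03), Edem2, Edem1 (-0.71), Derl3 (-0.64), Edem3, Creb3l2, Ube2g2 and Atf6 (-0.48) fell, and the transcription factor Creb3l1 rose (0.78, not in a fit to the 6 caerulein arrays alone). The sensors Eif2ak3 (0.14) and Ern1 (-0.13) did not pass. Of 47 translocon, signal peptidase and COPI or COPII coat genes, 13 fell and 2 rose (median -0.26). Copz2, Tmed6, Sec11c, a signal peptidase subunit (-1.51 ± 0.13), Arfgap3 and the signal recognition particle gene Srp68 (-1.35 ± 0.13) fell most. With each array centred on its median, 8 of the 47 fell. Without Mist1KO caerulein replicate 3 there were 0 rises, as there were after quantile normalization.

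Immediate early genes, which growth factor and calcium signals induce within minutes to hours, held falls and no rises. Of 37 measured, 16 fell, none rose and 21 did not pass (median -0.70, with 7 members above 0), against 11.6% of all genes that fell. After saline 3 were higher and none lower, against 6.14% of all genes that were higher. Leaving out single arrays gave 14 to 18 falls. Dusp1, a phosphatase of MAP kinases, read 735.9, 2070.1 and 1443.3 in wild type and 191.7, 334.3 and 36.9 in Mist1KO (-3.04 ± 0.57, adjusted p = 0.00217). Ier2 read 1723, 2849.4 and 1772.6 against 641, 668.5 and 234.4 (-2.10 ± 0.32, adjusted p = 0.000455), with an interaction of -2.67 ± 0.45 (adjusted p = 0.00622). Mist1KO caerulein replicate 3 was the lowest array in both, as it was for the transcription factors Egr1 and Klf6. Without it the differences were -2.28 for Dusp1, -1.68 for Egr1 (-2.32 with it) and -1.47 for Klf6 (-2.19 with it), and all 3 still passed. Fos (-2.03 ± 0.36), Junb (-1.20), Jund (-1.08), Jun (-0.99), Btg2 (-1.92) and Myc (-0.98) also fell. Myc was higher in Mist1KO after saline (0.71 ± 0.21). Fosb (0.56), Sgk1 (0.71) and Gadd45g (1.28) were on the other side of 0 without passing.

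Nfil3, a bZIP repressor that opposes the clock's PAR bZIP activators, read 1219, 1949.4 and 1335.7 in wild type and 303.4, 147.4 and 52.3 in Mist1KO (-3.25 ± 0.42, adjusted p = 0.000148). It was 24.9 or less on all Mist1KO saline arrays and 19.5 or less on wild type ones. The interaction was -3.10 ± 0.60 (adjusted p = 0.0141). Of 12 circadian genes, Nfil3, Rora (-1.60) and Hlf (-0.90) fell and none rose (median -0.11), while the core genes Clock (-0.12), Arntl (-0.63), Per1 (-0.10) and Nr1d1 (0.26) did not pass. Of 13 p53 targets, Sesn2, Trp53inp1 and Btg2 fell and Ccng1 rose (0.63). The call of Ccng1 was lost without wild type caerulein replicate 2 or 3 or Mist1KO caerulein replicate 1. Trp53inp1, which promotes autophagy and cell death, read 4088.4, 4449.1 and 4302.2 against 1423.6, 1537.6 and 401.4 (-2.13 ± 0.39, adjusted p = 0.00167), and was at -1.52 without Mist1KO caerulein replicate 3. The p53 targets Cdkn1a (-0.86) and Mdm2 (-0.40) did not pass, and Sesn2 and Btg2 are also members of the stress and early lists.

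**Figure D4:**
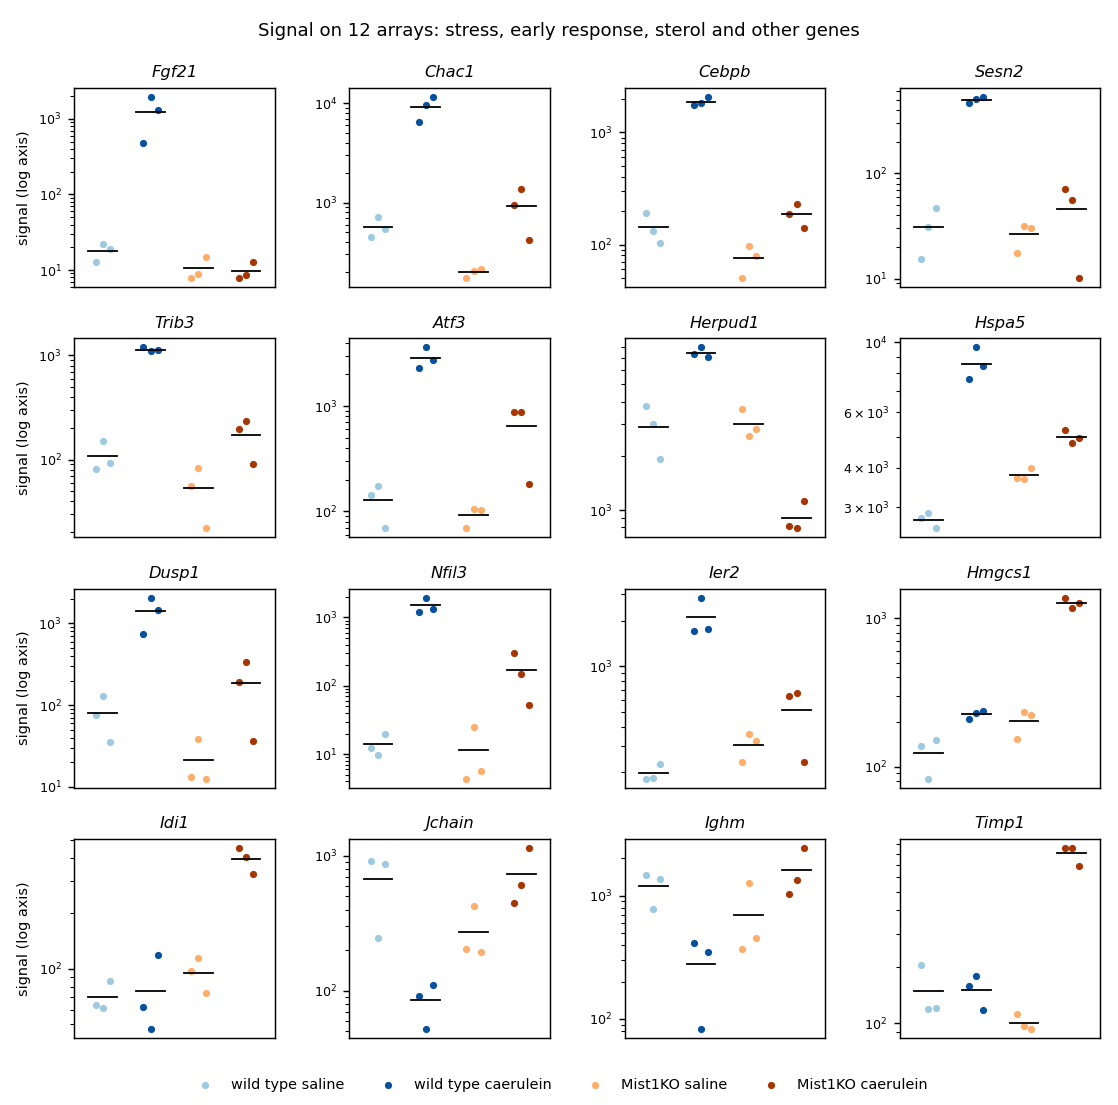
Signal of 16 genes (log axis) on the 12 arrays, with 1 point per pancreas and a bar at the mean of each group of 3, in the order wild type saline, wild type caerulein, Mist1KO saline and Mist1KO caerulein. Wild type caerulein stands highest for the stress and early genes from Fgf21 to Ier2, Mist1KO caerulein stands highest for Hmgcs1, Idi1 and Timp1, and wild type caerulein is lowest for Jchain (52.2 to 110.5).

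Sterol biosynthesis was higher. Of 16 measured members, 9 rose and none fell (median 0.63), against 9.03% of all genes, and without Mist1KO caerulein replicate 3, 7 rose and 1 fell. Hmgcs1, the synthase that makes HMG-CoA, read 208.7, 231.1 and 236.3 in wild type and 1381.9, 1182.9 and 1270.2 in Mist1KO (2.41 ± 0.19, adjusted p = 2.5e-06). Its 3 other probe sets lay between 1.99 and 2.57. Idi1, the isopentenyl diphosphate isomerase, read 61.8, 47.4 and 118.5 against 452, 400.7 and 327 (2.18 ± 0.25, adjusted p = 5.61e-05). The genotypes were apart by more than the spread in both, and both interactions passed (1.75 ± 0.27, adjusted p = 0.0042, and 1.83 ± 0.36, adjusted p = 0.0149). Cyp51 (1.92 ± 0.32), Msmo1 (1.36 ± 0.20), the squalene epoxidase Sqle (1.09 ± 0.23), Sc5d, Hsd17b7, Fdft1 and Fdps rose. Srebf2, the transcription factor that induces these enzymes, was at 0.11 ± 0.14 (adjusted p = 0.649) and Lss, lanosterol synthase, at -0.50 ± 0.18 (adjusted p = 0.0667).

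Calcium signalling genes changed singly. Of 27, 3 rose and 4 fell (median -0.11), not far from the shares of all genes (9.03% rose and 11.6% fell). Nfatc1, a transcription factor that calcineurin activates, read 284.8, 385 and 274.8 in wild type and 1462.5, 1270.1 and 1180.8 in Mist1KO (2.00 ± 0.15, adjusted p = 1.04e-06). After saline its groups read 218.3 to 235 and 223.6 to 281.6, and the interaction passed (1.81 ± 0.21, adjusted p = 0.000748). The store-operated channel Orai1 rose from 158.7 to 182.5 in wild type to 335.8 to 415.9 in Mist1KO (1.08 ± 0.13, adjusted p = 8.58e-05). A second probe set of Orai1 was at 0.27. Cckar, the receptor for caerulein itself, read 613.4, 735.8 and 812 against 1162.5, 1166.2 and 1774.4 (0.89 ± 0.16, adjusted p = 0.00156). Rcan1, an inhibitor of calcineurin, read 7527, 8839.9 and 10164.8 against 4011, 3704.1 and 1649.8. The groups did not overlap, but its spread on the saline arrays was wide and it did not pass (-1.59 ± 0.63, adjusted p = 0.0943). It passed in a fit to the 6 caerulein arrays alone, with an offset of 64 and without wild type saline replicate 2 (adjusted p between 0.00784 and 0.275 over all alternatives). Besides Atp2c2, the kinase Camk2b (-1.34), Nfatc4 (-0.80) and the ER calcium pump Atp2a2 (-0.52) fell, and 2 of the 4 falls remained without wild type caerulein replicate 2 or Mist1KO caerulein replicate 1 or 3.

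Genes of tight junctions and of simple or injured epithelium held more rises than falls. Of 29 junction and adhesion genes, 10 rose, 3 fell and 16 did not pass (median 0.31, against 9.03% of all genes that rose), and 6 rose without Mist1KO caerulein replicate 1 or 2. Cldn6 read 106.2, 125.9 and 44.6 in wild type and 429, 548.6 and 476.6 in Mist1KO (2.26 ± 0.26, adjusted p = 4.77e-05). The claudins Cldn18 (1.53 ± 0.20), Cldn7 (1.52 ± 0.17) and Cldn3 (1.05) rose too. A second probe set of Cldn18 was at 4.07 ± 0.28 after caerulein and 2.68 ± 0.28 after saline, and its interaction of 1.39 did not pass (adjusted p = 0.0738). Cldn4 read 1496.3, 1814.4 and 229.7 in Mist1KO against 97.2 to 232.5 in wild type, so that replicate 3 lay within the wild type range. Its difference was 2.35 ± 0.62 (adjusted p = 0.0156) and 3.27 without that array, and its call was lost without wild type caerulein replicate 2 or Mist1KO caerulein replicate 1 or 2. F11r, Ctnna1, Ctnnd1, Dsg2 and Ctnnb1 rose by 0.36 to 0.82, while Gjb1, Gjb2 and the cadherin Cdh2 (-1.02) fell and Cdh1 was at -0.10.

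Krt20, a keratin of gut and injured epithelium, read 54.8, 24.3 and 4.7 in wild type and 344.4, 414.6 and 150 in Mist1KO (2.83 ± 0.47, adjusted p = 0.000891). Of 12 keratin and duct cell genes, 5 rose and 1 fell (median 0.26), with 6 members above and 6 below 0. The bicarbonate transporter Slc4a4 (2.21), the potassium channel Kcnj15 (2.11), Epcam (1.63 ± 0.18) and Krt19 (1.27 ± 0.21) rose, and the water channel Aqp1 fell (-0.65). Krt8 (-0.50 ± 0.24) and Krt18 (-0.29 ± 0.14), the main acinar keratins, did not pass, nor did the duct factor Sox9 (-0.60). The summed signal of the 12 was 20317 to 24701 in Mist1KO and 21693 to 28627 in wild type, which overlap. Of 26 actin and early injury genes, 7 rose and 4 fell (median 0.36). Anxa2, an annexin of the cell cortex, read 759.8, 935.3 and 967 against 3285.3, 3426.7 and 3382.5 (1.91 ± 0.13, adjusted p = 4.47e-07). A second probe set of Anxa2 was at 0.12. Actn1 (1.70), Lgals3 (1.55), Cd44 (1.36 ± 0.22), Tubb6, S100a10 and Actn4 rose, and Hbegf, Tubb2a (-1.06), Actg1 and Actb (both -0.75) fell. Only 3 of the 7 rises were left without Mist1KO caerulein replicate 1 or 2 and 4 without wild type caerulein replicate 1. Of the 4 falls, 2 were left without wild type caerulein replicate 3 and 1 after quantile normalization. Of 8 annexins, Anxa2 and Anxa4 (0.91) rose and Anxa6 (-1.42) fell.

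Immunoglobulin transcripts were higher in Mist1KO after caerulein. Jchain, the joining chain of secreted antibodies, read 91, 52.2 and 110.5 in wild type and 446.6, 607.6 and 1150.2 in Mist1KO (2.80 ± 0.46, adjusted p = 0.000827). The wild type caerulein arrays stood below the wild type saline arrays (247.3 to 913.7), and the Mist1KO saline arrays (192.2 to 422.5) overlapped the latter. The interaction was 3.94 ± 0.65 (adjusted p = 0.0057). Ighm, the mu heavy chain, read 410.2, 83.4 and 345.9 against 1029.4, 1327.6 and 2443.5 (2.59 ± 0.53, adjusted p = 0.00356). It was at 1.94 without wild type caerulein replicate 2, its lowest array, and only 1 of its 5 other probe sets passed (1.86 ± 0.44). Iglv1 (2.64 ± 0.58) and, outside the list, Igkv8-30 (1.98 ± 0.50, and 1.23 without wild type caerulein replicate 2) rose as well. Of 8 immunoglobulin and plasma cell genes, 5 rose and 1 fell (median 1.65), and Pou2af1 (1.10) was not called without wild type caerulein replicate 3. Their summed signal was 4821 to 7376 in Mist1KO and 1636 to 2072 in wild type after caerulein, against 1820 to 2905 and 2393 to 4538 after saline. Sdc1, which epithelial cells also make, rose 4.59-fold (2.20 ± 0.18, adjusted p = 3.1e-06) and accounted for 2270.8 to 2371.7 of the Mist1KO sums. The B cell markers Cd79a (0.29) and Ms4a1 (0.48) did not pass, and Igha was at 0.38.

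Other cell types showed few calls. Of 21 neutrophil and macrophage genes, Lcn2 rose (1.39, not without Mist1KO caerulein replicate 3) and Elane fell (-0.73, not under most alternatives). Their summed signal was 3440 to 3947 in Mist1KO and 2539 to 2907 in wild type, which do not overlap, and C1qa was at 2.05 ± 0.73 (adjusted p = 0.0653). Of 10 lymphocyte and antigen presentation genes only Cd52 rose (1.27), a call lost without any of the 3 wild type caerulein arrays. Of 33 NF-kB, cytokine and chemokine genes, 4 rose and 1 fell (median 0.15): the acute phase protein Saa3 (1.72), Lcn2, Cxcl2 (1.01) and Nfkbia (0.90) rose and Ccl4 fell (-0.50). The call of Ccl4 was lost under most alternatives, and that of Cxcl2 without any caerulein array except Mist1KO caerulein replicate 2. That of Saa3 was lost without wild type caerulein replicate 3 or Mist1KO caerulein replicate 3. Without Mist1KO caerulein replicate 3, 2 rises were left, while in a fit to the 6 caerulein arrays alone 8 rose. Tnf (-0.32), Il1b (-0.08) and Ccl2 (0.36) did not pass. Of 23 fibroblast, stellate cell and matrix genes, Timp1, an inhibitor of matrix proteases that epithelial cells also secrete, rose and Des fell (-1.29, not under most alternatives). Timp1 read 158, 177.8 and 117.4 against 858.4, 863.4 and 692.1 (2.29 ± 0.20, adjusted p = 5.65e-06), with an interaction of 2.73 ± 0.28 (adjusted p = 0.000406). The collagens Col1a1 (1.20 ± 0.48) and Col3a1 (0.55) did not pass. Of 13 islet genes, Ttr (0.82) rose and Ins2 (-0.58) and Iapp (-0.45) fell, both calls being lost without wild type caerulein replicate 2 or 3 or Mist1KO caerulein replicate 2. Of 10 endothelial genes, Tek (-0.81) and Esam (-0.45) fell. The call of Tek was lost without wild type caerulein replicate 2 or Mist1KO caerulein replicate 2, and that of Esam under 16 of 21 alternatives. None of 5 adipocyte or 2 red blood cell genes passed.

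Genes of basic cell upkeep had medians near 0, and some of these lists held larger shares of calls than all genes, of which 9.03% rose and 11.6% fell. Of 34 cytosolic ribosomal proteins, 2 rose and 1 fell (median 0.00), with 0 to 2 in either direction on leaving out single arrays, and of 29 nucleolar ribosome biogenesis genes 4 rose, among them nucleolin (Ncl, 0.82) and nucleophosmin (Npm1, 0.78), and 2 fell. Of 34 proteasome subunits, 7 rose and 2 fell (median 0.15), led by the activator subunit Psme1 (1.44 ± 0.15, adjusted p = 2.33e-05), which was as high after saline (1.38 ± 0.15). Of 56 respiratory chain and ATP synthase genes, 10 rose, Cox6c the most (1.05 ± 0.16), and 4 fell (median 0.13), the falls numbering 1 or 2 without any single caerulein array except Mist1KO caerulein replicate 3. Of 28 lysosome and autophagy genes, 9 fell and 1, Lamp2 (1.30 ± 0.17), rose. The autophagy genes Gabarapl1 (-1.19), Map1lc3b (-0.85, not without wild type caerulein replicate 2), Sqstm1 (-0.83) and Wipi1 (-0.67) were among the falls, and with each array centred on its median 5 genes fell. Of 23 glutathione, oxidative stress and metallothionein genes, 4 rose, led by Gstm1 (1.42) and Srxn1 (1.08), and 3 fell. Mt1, a metallothionein, was at -0.79 ± 0.15 and at 0.06 after quantile normalization. Without Mist1KO caerulein replicate 3, 2 of the 4 rose. Of 20 heat shock genes, the mitochondrial chaperonin Hspe1 (1.27), Dnajb1 (0.68) and Hsp90aa1 (0.49) rose and Hspa9 fell (-0.74). Of these rises, 1, that of Hspe1, was left without wild type caerulein replicate 2 or Mist1KO caerulein replicate 1, and a second probe set of Dnajb1 was at 0.03. Of 21 cell cycle genes, Rrm2 (-1.65), Ccnd3 (-0.79) and Ccnd2 (-0.74) fell and Pcna rose (0.85).

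**Figure D5:**
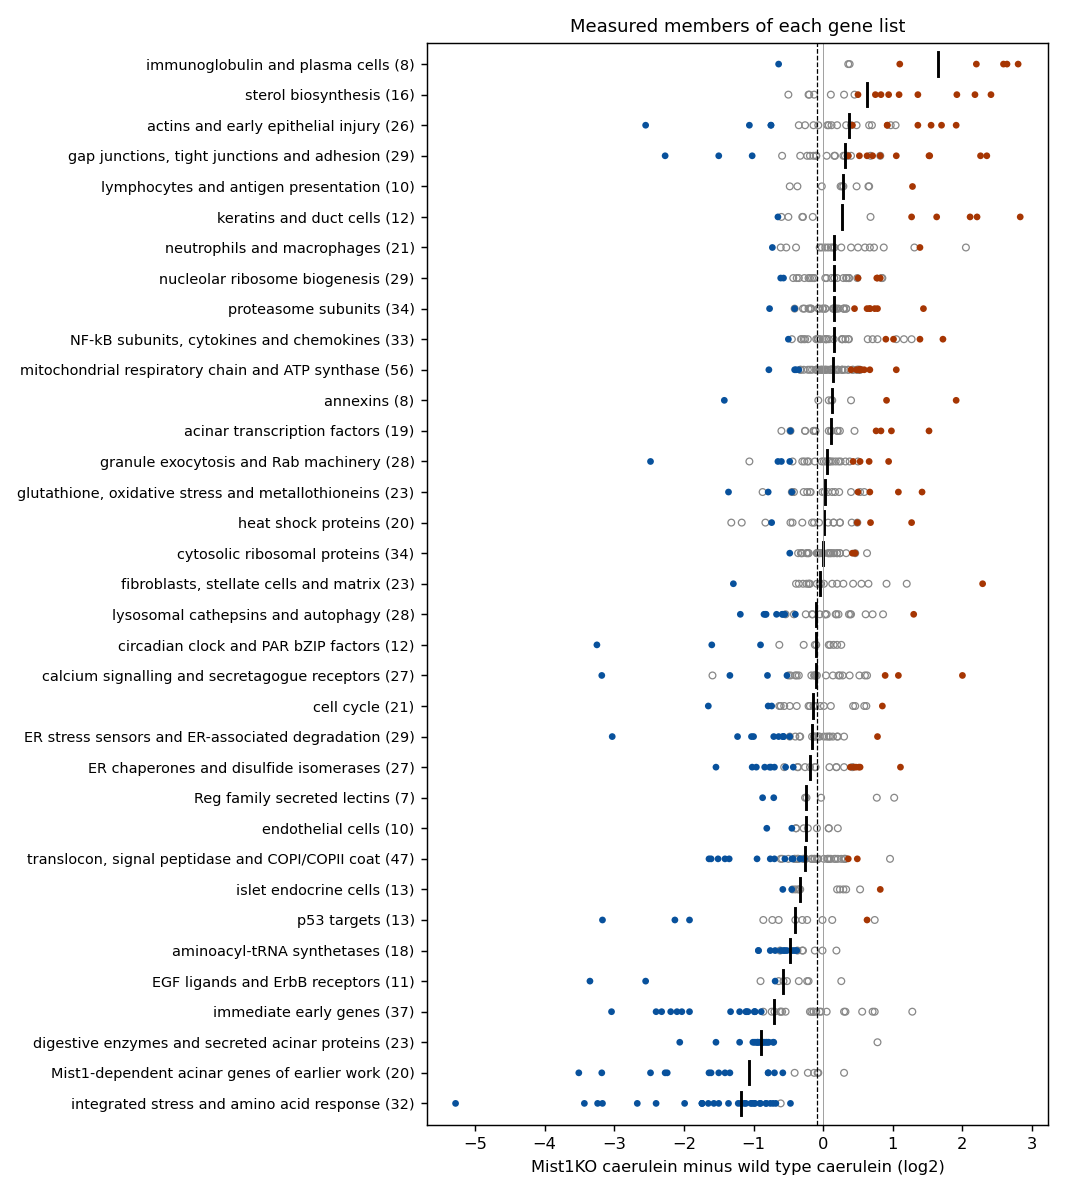
Mist1KO minus wild type difference after caerulein (log2, x axis) of each measured member of 35 gene lists (those with at least 7 measured genes, without the genes listed as raised after saline and the acinar markers, which repeat the enzymes), with the number measured in brackets and lists ordered by median (black bar). Filled points passed the threshold (brown higher, blue lower), open points did not, and the dashed line is the median of all genes (-0.09). The integrated stress and amino acid response lies lowest of the 35 (median -1.17) and immunoglobulin and plasma cells highest of them (1.65).

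The saline comparison, which shares no array with the caerulein one, was smaller. Of the 9481 genes, 1241 passed after saline (13.1%), 582 higher (6.14%) and 659 lower (6.95%). In probe sets these were 1977, and 1063, 1070 and 1164 without Mist1KO saline replicate 3, Mist1KO saline replicate 1 and wild type saline replicate 2, so the overlaps below rest on single arrays too. Both comparisons called 626 genes, 31.9% of the caerulein calls and 50.4% of the saline calls. Of these, 267 were higher and 339 lower in both, and 20 had opposite directions. Across the genes the differences correlated with r = 0.49, a description over genes that are not independent and that share the array type and scaling. The 1334 genes called after caerulein alone are not shown to differ from saline by that count.

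The genes that turned direction, chosen after their values were seen, included Nat8, Hspa5, Creld2, Hspa9, Actg1, Myc, Ccnd2 and Iglv1. Hspa5 did so with the probe set that represents it, while its second probe set did not pass after caerulein. Nat8, an acetyltransferase of cysteine conjugates, read 220.1, 218.4 and 222.8 in wild type and 53, 34.4 and 42.8 in Mist1KO after caerulein (-1.96 ± 0.17, adjusted p = 6.34e-06). After saline it read 194.5 to 263.9 in wild type and 537.2 to 803 in Mist1KO (1.51 ± 0.17, adjusted p = 0.000135). The wild type groups overlapped, and the Mist1KO groups lay on either side of them. The interaction test, which asks whether the genotype difference depended on the injection, passed for 317 genes (3.34%) and 518 probe sets. That count rested on single arrays: it was 343 probe sets without wild type caerulein replicate 2, 310 and 273 without Mist1KO saline replicates 1 and 3, and 271 and 300 without Mist1KO caerulein replicates 1 and 2. Of the genes chosen by rule, 41 passed it, and 25 of these passed under every alternative run. Among the 25 were Fgf21, Herpud1, Cebpb, Sesn2, Ier2, Hspa5, Nat8, Nfatc1, Nr5a2, Hmgcs1, Idi1, Timp1, Jchain and Anxa2. Other list members that passed it are not part of that count.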

How the data were processed

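Total RNA of 12 mouse pancreata was measured on Affymetrix mouse arrays, 1 per pancreas. The deposited values are linear signal intensities, 1 per probe set; the software for scanning, summary and scaling is not given in the sources used, and no detection calls were used. The 2% trimmed means of the arrays lay between 151.08 and 151.37, so the authors' values had been scaled to a common mean, and this scaling was kept. Of 22516 probe sets, 64 controls were left out. Of the rest, 20240 had 1 gene symbol in the platform annotation, 682 several and 1530 none, and genes were named only from those with 1. Before log2, 18.7 was added to each value (the table's 20th percentile). Probe sets with a mean log2 at or below the 30th percentile (6736) were left out. The model had 1 mean for each of the 4 groups over the 12 arrays and 8 residual degrees of freedom. It was run in limma 3.58.1 (R 4.3.3; lmFit, then eBayes with trend) and tested from both sides, with Benjamini-Hochberg adjustment over 15716 probe sets and a threshold of 0.05. The code was tested on simulated data. A gene is represented by its probe set of highest mean log2. Figures were drawn with matplotlib 3.10.9.

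The members and the 39 gene lists (876 of 993 symbols matched to the annotation) were chosen with earlier results of these data known. Lists are described by counts and medians, with no set test. Genes given with values are the 12 largest rises and falls with groups apart, up to 5 called members of each list, the 6 largest interactions each way and a short fixed set; other list members are named to account for a list. Replicate numbers are in the labels and are not stated to pair pancreata. The number of arrays limits the precision. The p-values set a group difference against the spread between these pancreata, which was estimated over all 4 groups. The alternatives were offsets of 1 and 64, no filter and a stricter one, quantile normalization, median centring, the 6 caerulein arrays alone, no trend, a replicate block and leaving out each array.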

Additional observations from a re-analysis of the deposited data

Results flagged for a closer look

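For 41 of the genes chosen by rule, the Mist1KO minus wild type difference after caerulein differed from that after saline. The test was limma's interaction test (adjusted p under 0.05 over all probe sets). The values below are the caerulein difference minus the saline difference, on the log2 scale, and 25 of the 41 passed under every alternative run.

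In the stress and ER groups the difference was lower after caerulein for Fgf21 (-4.96), Herpud1 (-3.13), Sesn2 (-3.07), Trp53inp1 (-2.92), Cebpb (-2.47), Chac1 (-2.01), Hspa9 (-1.28), Hspa5 (-1.24), Ero1b (-1.09), Rars (-0.88), Edem2 (-0.88), Selenos (-0.84), Srp68 (-0.76) and Dnajc3 (-0.73). It was lower too for Nat8 (-3.46), Nfil3 (-3.10), Ier2 (-2.67), Rora (-1.47), Ccnd2 (-1.39), Gabarapl1 (-1.26) and Sqstm1 (-0.60).

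It was higher after caerulein for the immunoglobulin genes Iglv1 (5.05), Jchain (3.94), Ighm (3.52) and Igkv8-30 (2.89), and for Reg3g (3.85), Timp1 (2.73), Sdc1 (1.21) and Nfkbia (1.06). Among epithelial genes it was higher for Slc4a4 (2.38), Tm4sf4 (1.81), Actn1 (1.68), Krt19 (1.62), Cd44 (1.46), Cldn18 (1.43) and Anxa2 (1.17). Nfatc1 (1.81), Orai1 (1.28), Nr5a2 (1.42), Hmgcs1 (1.75) and Idi1 (1.83) were higher as well.

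Chac1, Ero1b, Dnajc3, Selenos, Srp68, Slc4a4, Gabarapl1, Sqstm1 and Igkv8-30 each lost this call under 8 to 14 alternatives. The second probe set of Cldn18 did not pass (1.39, adjusted p = 0.0738). Reg3g was not past the threshold after caerulein (1.02 ± 0.56) and was lower in Mist1KO after saline (-2.83), and its interaction was lost without Mist1KO saline replicate 3.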

How the results depend on the processing

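The caerulein comparison called 3177 probe sets, and between 2807 and 3197 under other settings, apart from leaving out single arrays. Leaving out single arrays gave 2177 to 3347 in all, 1072 to 1677 of them higher and 1099 to 1670 lower. The saline comparison called 1977, and 1063 to 2066 on leaving out single arrays. The lowest counts there came without Mist1KO saline replicates 3 (1063) and 1 (1070) and wild type saline replicate 2 (1164). The interaction called 518 probe sets, 328 without a trend in eBayes and 271 to 553 on leaving out single arrays. With the replicate number as a block, 2903 probe sets passed after caerulein. Same-numbered caerulein arrays did not deviate together (correlations of 0.004, -0.01 and -0.025), so the numbers were not taken as a pairing. Of the 157 genes chosen by rule that passed, 119 were counted as keeping their direction and call under those of the 21 alternatives that tested them. That count took in 2 genes that did not, Reg2 (0.15) and Mt1 (0.06). Both turned sign and lost their call after quantile normalization, and the cause was not tested. Signal over background is not known, so differences of dim genes depend on the offset.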
